A study of Mus musculus with 2 samples.

Results

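The beta-defensin genes of the mouse, named *Defb* with a number, were described in RNA from the oocytes of mice aged 2 weeks. All rows of the table of all genes with such a name were taken, which gave 15 genes of 18467. RefSeq lists 43 *Defb* genes on this genome, and the other 28 had no row. The table holds 0 genes that are at 0 in both libraries. The family was chosen by its FPKM values in these libraries, because *Defb41* and *Defb48* were at 0 in wild type only, so the members' values are a description and carry no test. There were 2 libraries, 1 for each genotype, and both came from C57BL/6 mice. The first was labelled wild type. The second was labelled *Kat8* *Gdf9* cKO, which is usually read as a conditional knockout of *Kat8* with Cre driven from *Gdf9*, an oocyte gene switched on early in follicle growth, and is called the knockout library here. *Kat8* encodes MOF, the acetyltransferase of lysine on histone H4. The columns of the deposited tables are named KO and NC, and NC was taken as the wild type library because it is the only sample that is no knockout. With 1 library per group, genotype and library cannot be told apart, and whether animals were pooled was not given in the sources used here.

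Beta-defensins are short, secreted, positively charged peptides, held in shape by cysteines that pair in disulfide bonds. They disrupt microbial membranes at epithelial surfaces, and some also bind chemokine or melanocortin receptors. In mammals most of the family is known from the epididymis and testis, where members coat sperm and act in its maturation. The genes stand in tandem clusters that grew by duplication, each gene usually with a first exon for the signal peptide and a second for the mature peptide.

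*Defb41* (chr1:18250978-18265138, minus strand) and *Defb48* (chr14:62977524-62984510, minus strand) are shown here because they were the members listed at 0 in the wild type library. *Defb50* and *Defb19* are shown because they had the highest levels in that library, and *Defb8* because its cysteine pattern differs. The coding sequences are those of GENCODE M21 on GRCm38 (the build also called mm10), read 5′ to 3′, with in-frame cysteine codons in capitals.
Defb41: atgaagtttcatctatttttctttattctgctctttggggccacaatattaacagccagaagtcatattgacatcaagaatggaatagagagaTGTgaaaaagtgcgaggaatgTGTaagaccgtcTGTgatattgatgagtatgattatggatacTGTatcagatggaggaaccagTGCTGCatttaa
Defb48: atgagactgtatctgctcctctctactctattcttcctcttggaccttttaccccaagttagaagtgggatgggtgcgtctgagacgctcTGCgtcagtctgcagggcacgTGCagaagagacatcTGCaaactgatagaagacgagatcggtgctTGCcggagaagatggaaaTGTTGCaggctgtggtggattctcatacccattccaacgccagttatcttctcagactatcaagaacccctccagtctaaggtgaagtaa
Defb50: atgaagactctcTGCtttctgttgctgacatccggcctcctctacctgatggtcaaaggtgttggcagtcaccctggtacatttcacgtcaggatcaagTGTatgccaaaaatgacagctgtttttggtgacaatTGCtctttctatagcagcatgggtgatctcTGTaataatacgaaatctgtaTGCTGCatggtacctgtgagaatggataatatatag
Defb19: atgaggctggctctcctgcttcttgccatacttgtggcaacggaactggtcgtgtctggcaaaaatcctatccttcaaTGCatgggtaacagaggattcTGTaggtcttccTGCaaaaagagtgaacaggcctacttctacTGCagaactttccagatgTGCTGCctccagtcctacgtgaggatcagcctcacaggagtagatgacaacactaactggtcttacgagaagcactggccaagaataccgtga
Defb8: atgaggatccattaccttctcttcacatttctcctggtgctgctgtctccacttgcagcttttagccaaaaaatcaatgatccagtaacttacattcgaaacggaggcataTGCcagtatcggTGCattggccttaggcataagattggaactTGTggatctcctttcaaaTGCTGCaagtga
All 15 members had 2 exons in this annotation, with transcripts of 207 to 872 bases and coding lengths of 183 to 540 bases. In all 15 the second exon had 2 adjacent cysteine codons at or near the end of its cysteine pattern, with another after them in *Defb22* and *Defb15*. In 13 the second exon held 6 or more cysteine codons. In *Defb41* these were separated by 6, 3, 9, 6 and 0 codons, and in *Defb48* by 6, 4, 9, 5 and 0. *Defb50* and *Defb8* had 5 cysteine codons in the second exon. The C57BL/6 form of *Defb8*, known as Defr1, is known to lack the first cysteine of the pattern. Over the 105 pairs of members, coding sequences were 29.4% to 85.6% identical, with a median of 50.8%. *Defb41* and *Defb48* were 48.9% identical to each other, and their nearest relatives among all *Defb* coding sequences were *Defb33* (56.0%) and *Defb30* (56.3%), neither of which had a row in the table.

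*Defb41*, known from the initial segment of the epididymis, was at 0 in wild type oocytes and had 45.7 FPKM in the knockout library. FPKM counts fragments per kilobase of transcript and per unit of mapped fragments, so it compares levels per length. *Defb48* was at 0 in wild type oocytes and had 12.3 FPKM in knockout oocytes. Where a pair of values follows without labels, wild type comes first. No ratio is given against a library listed at 0. These were 2 of 15 members, and 6.55% of all genes were at 0 in the wild type library only, the contrast on which the members were chosen. Among the 1210 genes listed at 0 in the wild type library, *Defb41* ranked 1 and *Defb48* ranked 4 by their level in the knockout library, and 4 of the 1210 reached 10 FPKM there. In the other direction, 2 of the 1055 genes listed at 0 in the knockout library reached 10 FPKM in the wild type library, and neither was a beta-defensin. Both *Defb41* and *Defb48* are among the 500 genes on the authors' deposited table of genes higher in the knockout, which holds 2.71% of all genes. The authors' deposited table of 358 lower genes, 1.94% of all genes, holds 0 members. *Defb41* has 2 transcripts in GENCODE M21, of 467 and 198 bases, and the deposited level does not tell them apart.

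**Figure D1:**
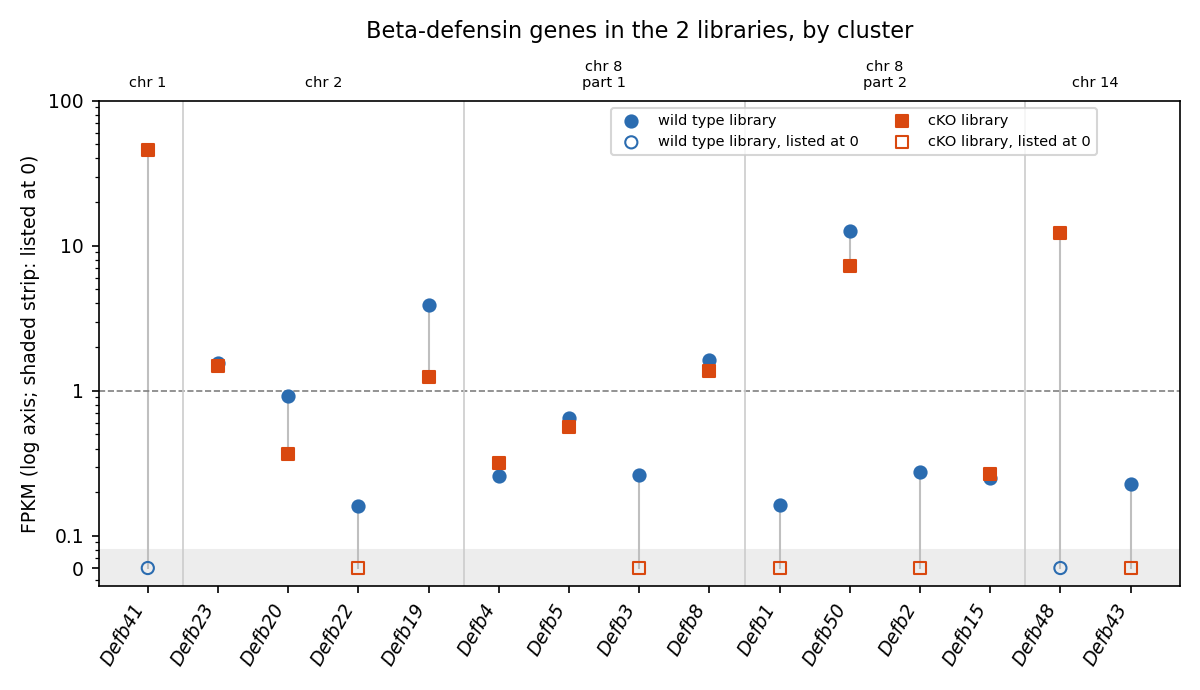
FPKM on a log axis for each of the 15 beta-defensin genes in the wild type library (circles) and the knockout library (squares, marked cKO), in map order within each cluster; open symbols in the shaded strip are values listed at 0, the dashed line is 1 FPKM, and there is 1 library per group, so no error bars. *Defb41* at 45.7 FPKM and *Defb48* at 12.3 FPKM are filled in the knockout library and open in the wild type library, whereas 5 members under 0.3 FPKM are open in the knockout library.

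*Defb50*, in the second group of genes on chromosome 8 (chr8:21823539-21831296), had the highest level of the family in the wild type library. It stood at 12.7 FPKM there and at 7.22 FPKM in the knockout library, 1.76-fold lower. That is a log2 ratio of -0.81 on the log2(FPKM + 0.1) scale used for all ratios here. *Defb50* made up 55.3% of the summed FPKM of the family in the wild type library.

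*Defb19*, on chromosome 2 (chr2:152576086-152580312) and known from the testis and the male genital tract, came next in the wild type library. Its level was 3.89 FPKM in wild type and 1.25 FPKM in the knockout library, 3.11-fold lower (log2 ratio -1.56). A gene was called higher or lower where it reached 1 FPKM in either library and its log2 ratio was at least 1 or at most -1. Of all genes, 64% reached that floor, and of the beta-defensins 6 of 15 did. Of the 11816 genes at the floor, 18.2% were called higher and 12.2% lower; of the 6 members, *Defb41* and *Defb48*, chosen on this contrast, were called higher and *Defb19* lower. Just outside the rule stood *Defb50*, with its log2 ratio of -0.81, and *Defb20*, which was 2.54-fold lower in the knockout library but reached only 0.927 FPKM.

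*Defb8* and *Defb23* were the other members at 1 FPKM or more, and their levels were close in the 2 libraries. *Defb8* (chr8:19445770-19447606) had 1.64 FPKM in wild type oocytes and 1.37 FPKM in knockout oocytes, a log2 ratio of -0.25. *Defb23* (chr2:152459055-152464620) had 1.56 and 1.48 FPKM, with a log2 ratio of -0.07. Whether *Defb23* lies above or below its wild type level depended on the scaling, with log2 ratios from -0.21 to 0.16 over the 4 scalings tried.

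The other 9 members stayed under 1 FPKM in both libraries. *Defb20*, on chromosome 2, had 0.927 FPKM in wild type oocytes and 0.365 FPKM in knockout oocytes. *Defb5*, in the first group on chromosome 8, stood at 0.651 and 0.560 FPKM. *Defb4*, which is known as an inducible epithelial defensin, stood at 0.257 and 0.317 FPKM, and *Defb15* at 0.251 and 0.265 FPKM. These 4 were thus above 0 in both libraries, with *Defb4* and *Defb15* slightly higher in the knockout library and *Defb20* and *Defb5* lower.

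Another 5 members were above 0 only in the wild type library. *Defb2* had 0.276 FPKM there, and *Defb3*, the inducible mouse gene of the airways, had 0.265 FPKM. *Defb43* had 0.226 FPKM. *Defb1*, made constitutively in kidney and other epithelia, had 0.164 FPKM, and *Defb22*, whose primate counterpart is a coat protein of sperm, had 0.160 FPKM. All 5 were listed at 0 in the knockout library. Among the 6651 genes under 1 FPKM in both libraries, 15.7% were listed at 0 in the knockout library and 17.8% in the wild type library, beside 5 and 0 of the 9 members, again in the contrast that chose the family.

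These low values lie near the level of single fragments. The quotients of the knockout and wild type values were taken in 3503 genes above 0 and under 0.6 FPKM in both libraries. With the most extreme left out, they piled up at 0.619, 1.24 and 2.47. Fragments of 1 to 2, 1 to 1 and 2 to 1 would lie there. The ratio of *Defb4*, 1.23, lies at the middle peak. Any equal counts would lie at that peak, so the ratio does not give the number of fragments of *Defb4*. Multiplied by the GENCODE transcript length in kilobases, which takes length out of the unit, the levels of the 5 members above 0 in the wild type library alone came to 0.0728 to 0.143 FPKM × kb. In the same unit, *Defb41* came to 21.3 and *Defb48* to 5.46 in the knockout library. *Defb50* came to 4.75 in wild type and 2.69 in the knockout library. For scale, 10% of 2310 genes with a single transcript and a level above 0 in the wild type library lay at or below 0.0742 FPKM × kb. Which transcript lengths the authors used was not given in the sources used here, and total depth is unknown, so no counting interval is given. Presence or absence of these 5 members was therefore not resolved at this depth, whereas *Defb41* and *Defb48* stood far above that level in the knockout library.

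In all, 13 members were above 0 in wild type and 10 in knockout oocytes. Of these, 8 were above 0 in both, beside 87.7% of all genes, and 5 only in the wild type library, beside 5.71% of all genes. At 1 FPKM or more there were 4 in wild type and 6 in the knockout library, the difference being *Defb41* and *Defb48*. The summed FPKM of the family was 23.0 in wild type and 70.8 in the knockout library, and *Defb41* and *Defb48* supplied 81.9% of the latter. Without them the sum was 23.0 in wild type and 12.8 in the knockout library. As these 2 were the members at 0 in wild type, leaving them out can lower only the knockout sum. The 13 that remain are all above 0 in wild type for the same reason, so these sums carry no test. Of the 8 members above 0 in both, 6 were lower and 2 higher in the knockout library in FPKM as deposited, and 4 were lower and 4 higher after rescaling to TPM.

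**Figure D2:**
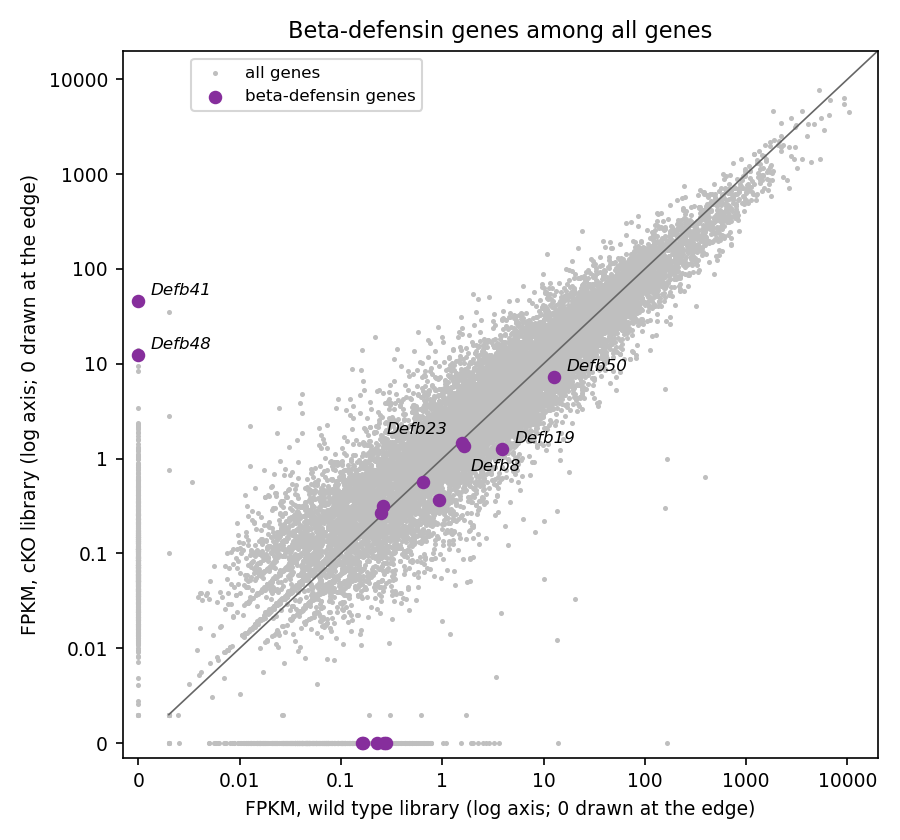
FPKM in the knockout library against FPKM in the wild type library for all 18467 genes (grey) and the 15 beta-defensin genes (purple), both axes logarithmic, with values listed at 0 drawn at the edge and values below the axis drawn at its lower end; the line marks equal values. *Defb41* and *Defb48* lie on the left edge above nearly all other genes listed at 0 in the wild type library, *Defb50* and *Defb19* lie below the line, and 5 members lie on the lower edge.

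The members were spread over 5 clusters, separated by at least 1 Mb or by chromosome. On chromosome 1, 1 of the 3 RefSeq genes had a row, *Defb41*, and the summed level was 0 in wild type and 45.7 FPKM in the knockout library. On chromosome 14, *Defb48* and *Defb43* of 5 genes had rows. Their summed level was 0.226 FPKM in the wild type library, from *Defb43*, and 12.3 FPKM in the knockout library, from *Defb48*. The chromosome 14 cluster thus held 1 member above 0 in each library alone and 0 in both. Of all genes, 87.7% were above 0 in both, 6.55% in the knockout library alone and 5.71% in wild type alone. *Defb48* was chosen on this contrast, and presence or absence of *Defb43* was not resolved at this depth.

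The clusters on chromosomes 2 and 8 were lower in sum in the knockout library. On chromosome 2, 4 of 11 genes had rows (*Defb23*, *Defb20*, *Defb22* and *Defb19*), with a sum of 6.53 FPKM in wild type and 3.09 FPKM in the knockout library. In the first group on chromosome 8, 4 of 14 genes had rows (*Defb4*, *Defb5*, *Defb3* and *Defb8*), with sums of 2.81 and 2.25 FPKM. In the second group, 4 of 10 had rows (*Defb1*, *Defb50*, *Defb2* and *Defb15*), with sums of 13.4 and 7.48 FPKM, most of it *Defb50* in both libraries. The highest member of a cluster and its weakest could lie side by side, as *Defb50* does between *Defb1* and *Defb2*, both listed at 0 in the knockout library.

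**Figure D3:**
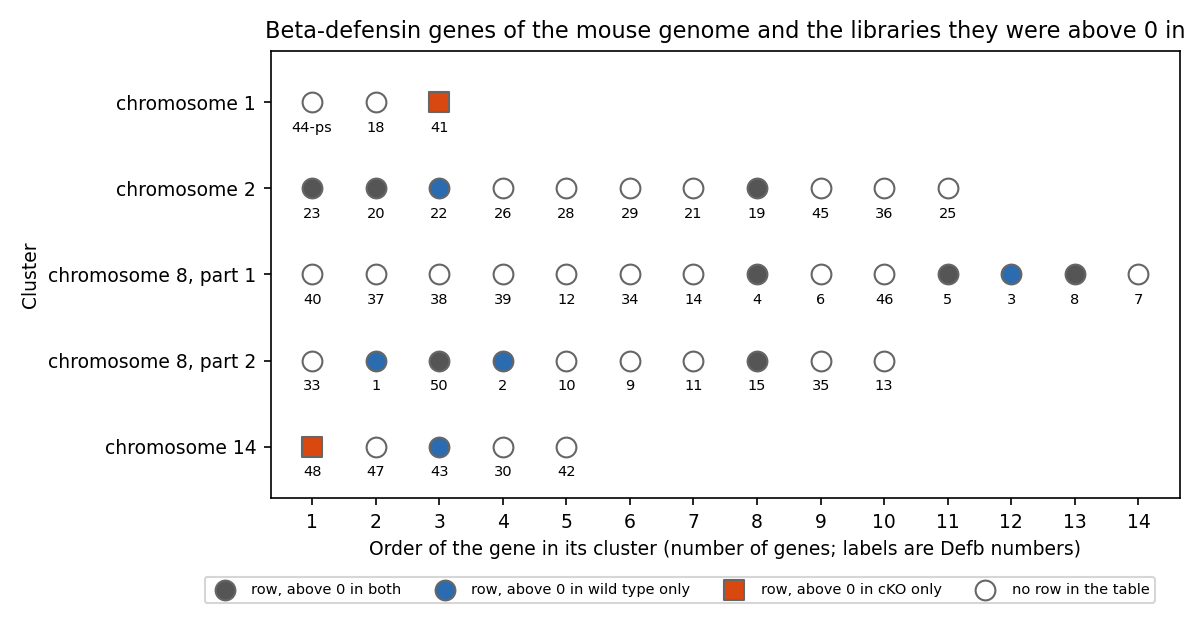
The 43 RefSeq beta-defensin genes in map order within the 5 clusters (x axis, order in the cluster; y axis, cluster), marked by whether the gene had a row and in which library it was above 0; labels are the *Defb* numbers. The genes above 0 in the knockout library only are *Defb41* on chromosome 1 and *Defb48* on chromosome 14, and 28 genes are open circles without a row.

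Members of a tandem family can share reads, so their transcripts were compared over windows of 50 bases against all GENCODE M21 transcripts. For 11 of the 15, *Defb41*, *Defb48*, *Defb50* and *Defb19* among them, 0 windows occurred in a transcript of another gene. *Defb4* and *Defb8* shared 23 windows, 5.68% of those of *Defb4* and 9.66% of those of *Defb8*. *Defb2* shared 20.7% of its windows with *Defb11*, *Defb10* and *Defb9*. *Defb15* shared 37.2% with *Gm36879*, an antisense gene whose exons overlap it, and reads of the pair cannot be told apart without strand. The levels of these 4 members are uncertain at least to that extent. Only exact matches were sought, so shorter or inexact matches, and matches outside annotated transcripts, were not tested for any of the 15. A processed pseudogene, *Gm17837*, lies in the intron of *Defb41* on the same strand, with no overlap of exons.

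The RefSeq promoter table (GRCm38.p6) held 10 of the 15 members. The 250 bases before the start are printed for *Defb41* (chr1:18265139-18265388) and *Defb48* (chr14:62984511-62984760), because these were the members seen in the knockout library alone. Both are on the minus strand and read 5′ to 3′ toward the gene, with every match to the motifs searched in capitals.
Defb41 promoter: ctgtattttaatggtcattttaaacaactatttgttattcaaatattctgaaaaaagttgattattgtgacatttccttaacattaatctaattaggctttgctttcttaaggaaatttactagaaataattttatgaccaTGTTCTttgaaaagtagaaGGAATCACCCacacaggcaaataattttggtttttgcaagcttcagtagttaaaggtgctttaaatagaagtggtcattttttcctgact
Defb48 promoter: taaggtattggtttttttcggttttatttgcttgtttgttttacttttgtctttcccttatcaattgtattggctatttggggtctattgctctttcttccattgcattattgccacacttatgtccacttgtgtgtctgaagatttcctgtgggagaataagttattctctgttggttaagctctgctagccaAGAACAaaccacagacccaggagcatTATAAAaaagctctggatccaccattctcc
The 6 motifs were searched on both strands: TATAAA (the TATA box), TAATTG (bound by the oocyte factor NOBOX), TGANTCA (AP-1), GGGNNNNNCC (a loose NF-kappaB site), AGAACA (the androgen response element's single arm) and CACGTG (an E-box). In *Defb48*, TATAAA began 30 bases before the start, and AGAACA 56 bases before it. In *Defb41*, GGGNNNNNCC lay 90 bases and AGAACA 109 bases before the start, both on the opposite strand, and the 2 matches do not overlap. AGAACA occurred in 7 of the 10 member promoters and in 16.1% of 32851 promoters of the same length, and the 7 included *Defb41* and *Defb48* as well as *Defb23*, *Defb8*, *Defb15*, *Defb3* and *Defb43*. TATAAA occurred in 3 of 10 (*Defb48*, *Defb15* and *Defb23*) and in 12.4% of all promoters. GGGNNNNNCC occurred in 3 of 10 and in 45.8%, TAATTG in 1 (*Defb3*) and in 7.17%, TGANTCA in 0 and in 6.75%, and CACGTG in 0 and in 6.02%. TATAAA was matched letter for letter, so other forms of the TATA box were not counted. *Defb3*, *Defb5* and *Defb8* read TATATAAG, which is no match. In *Defb23*, TATAAA began 221 bases before the start. Matches to the motifs describe the letters in this window and not binding. The promoters of a tandem family are not independent of each other. Those of *Defb3* and *Defb8* read alike over long stretches, with AGAACA 227 and 225 bases before the start. Whether members hold any motif more often than other promoters was not tested.

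*Kat8* itself had 166 FPKM in wild type oocytes and 0.985 FPKM in knockout oocytes, 168-fold lower, as the labels have it. All 10 oocyte markers were present, with summed levels of 13466 FPKM in wild type and 14485 FPKM in the knockout library. *Gdf9* was the largest part of both sums, at 5201 and 7658 FPKM. *Ddx4* was called higher (19.4 and 57.7 FPKM), *Oosp1* lower (2550 and 878 FPKM) and the other 8 neither. Markers of other cells were low in sum beside the oocyte markers. For granulosa cells 10 of 10 markers were present, with summed levels of 99.4 and 124.5 FPKM. Of the 9 at the floor, 4 were called higher and 0 lower in the knockout library, beside 18.2% and 12.2% of all genes at the floor. For theca and stroma 10 of 10 were present, with sums of 2.23 and 11.4 FPKM. Only 4 of them reached the floor and all 4 were called higher, and *Lhcgr* and *Lum* were at 0 in wild type. For surface and tubal epithelium, a possible source of defensin RNA, 6 of 10 were present, with sums of 9.95 and 11.9 FPKM; *Krt18* was called higher, and *Foxj1* was listed at 0 in the knockout library. For neutrophils and macrophages 5 of 10 were present, with sums of 1.45 and 1.90 FPKM, *Ptprc* at 0 in wild type and *Itgam* at 0 in the knockout library. For endothelium and blood 7 of 7 were present, with sums of 64.1 and 26.6 FPKM, of which *Hba-a1* gave 51.5 and 14.99 FPKM. Of the 3 at the floor, *Hba-a1* was called lower, and *Pecam1* (9.78 and 8.14 FPKM) and *Tek* (2.33 and 2.06 FPKM) neither. Under the floor, *Cdh5* (0.0361 and 0.527 FPKM), *Kdr* (0.189 and 0.403 FPKM) and *Alas2* (0.232 and 0.476 FPKM) went the other way. *Hbb-bs* was near 0 in both libraries. The part of such cells in the *Defb41* and *Defb48* values was not tested, and in bulk RNA fewer cells of a type and less RNA per cell cannot be told apart.

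The genes beside the clusters were called in both directions. The 35 neighbours are the other genes with rows that lie between the outer members of a cluster or within 200 kb of them. Of these, 24 reached the floor, and 5 were called higher, 4 lower and 15 neither. Over all genes at the floor, 18.2% were called higher and 12.2% lower. The median log2 ratio of the neighbours was 0.10, beside 0.06 over all genes at the floor. The balance depended on the scaling, with 6 higher and 2 lower of 26 and a median of 0.34 after rescaling to TPM, 5 higher and 2 lower of 24 without the 50 most abundant genes, and a median of -0.05 by median-of-ratios scaling.

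Beside *Defb41* the only neighbour was *Crisp4*, an epididymal secretory protein gene, at 0.0289 FPKM in wild type and 0 in the knockout library. The nearest genes at the floor lay far off. *Pi15*, a peptidase inhibitor gene 620 kb away, stood at 0.187 and 1.76 FPKM, and *Tfap2b*, a transcription factor gene 944 kb away on the other side, at 1.51 and 1.27 FPKM.

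Beside *Defb48*, *Wdfy2* at 20.6 kb had 0.765 FPKM in wild type oocytes and 1.21 FPKM in knockout oocytes, a log2 ratio of 0.59. On the far side of that cluster, *Ctsb*, the gene of the lysosomal protease cathepsin B, stood at 11.2 and 29.5 FPKM, 2.64-fold higher. *Neil2*, a DNA glycosylase gene, stood at 5.52 and 22.4 FPKM, 4.06-fold higher. These were the 2 of 6 neighbours at the floor on chromosome 14 called higher, and 0 were called lower. The shares over all genes at the floor were 18.2% and 12.2%.

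On chromosome 2, *Defb23* and *Defb19* lie between *6820408C15Rik*, at 9.68 and 11.2 FPKM, and *H13*, at 33.7 and 40.1 FPKM, neither of which passed the rule. Of 12 neighbours at the floor there, 3 were called higher and 1 lower, beside 18.2% and 12.2% of all genes at the floor. *Id1*, an inhibitor of basic helix-loop-helix factors, had 2.18 FPKM in wild type oocytes and 34.9 FPKM in knockout oocytes. *Sox12* stood at 1.22 and 7.08 FPKM, *Trib3* at 1.46 and 3.77 FPKM, and *Gm14164*, the lower one, at 5.75 and 2.64 FPKM. The call of *Gm14164* was lost after rescaling to TPM and without the 50 most abundant genes, which left 3 higher and 0 lower. *Defb19* was thus lower in the knockout library within a stretch where most called neighbours were higher.

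In the second group on chromosome 8, around *Defb50*, 0 of 6 neighbours at the floor were called higher and 3 lower. Their median log2 ratio was -0.88, and the shares over all genes at the floor were 18.2% higher and 12.2% lower. *AY761184*, an alpha-defensin gene (*Defa39* in RefSeq), had 2.45 FPKM in wild type oocytes and 0.393 FPKM in knockout oocytes, 6.22-fold lower. *C86695* stood at 26.1 and 12.6 FPKM, 2.08-fold lower, and *Nek5*, a kinase gene, at 1.90 and 0.393 FPKM, 4.84-fold lower. *Defb50* lay between *AY761184* and *C86695*, which were lower in the same library by more than it was. The 3 neighbours called neither, *Defa-ps1*, *Nek3* and *Alg11*, were lower by less than *Defb50*, with log2 ratios of -0.61, -0.71 and -0.21. After rescaling to TPM, *C86695* no longer passed the rule, leaving 2 called lower and a median of -0.64. Without the 50 most abundant genes 2 were called lower as well, with a median of -0.68. In the first group on chromosome 8, *Defb8* lies between *Agpat5*, at 6.78 and 7.74 FPKM, and *6820431F20Rik*, at 1.30 and 1.20 FPKM, and the 2 neighbours within 200 kb were under the floor. These were *Spag11a*, at 0.210 and 0.708 FPKM, and *Spag11b*, at 0.0266 and 0.356 FPKM, epididymal genes with a defensin-like form.

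**Figure D4:**
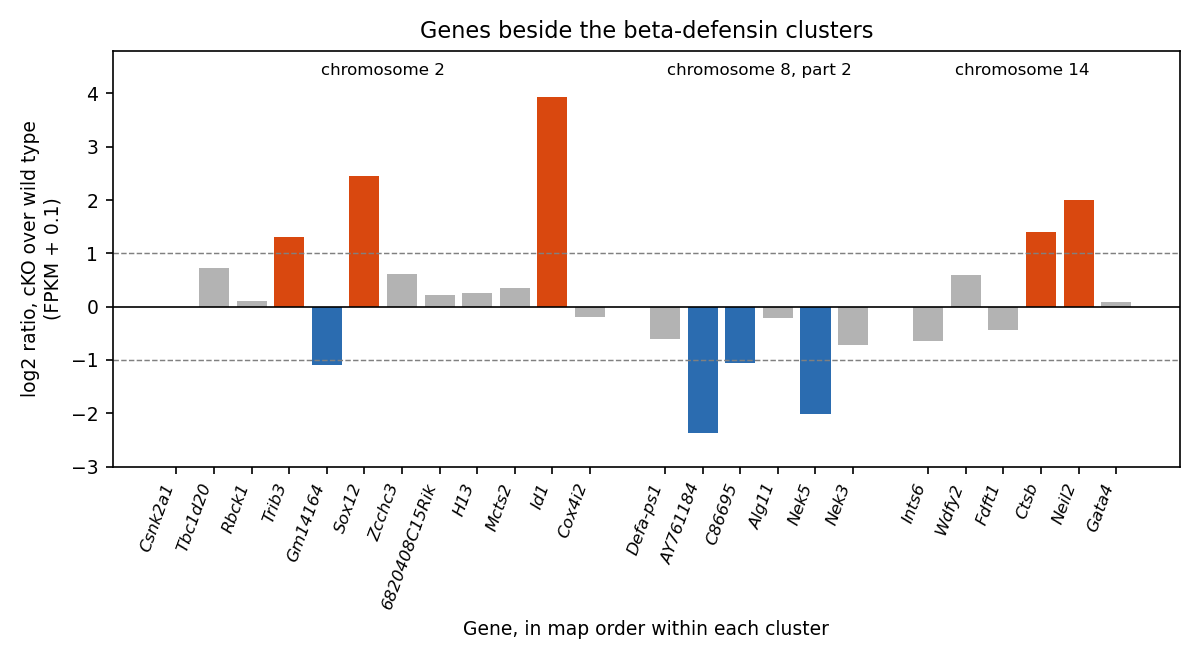
Log2 ratio of knockout over wild type, on the log2(FPKM + 0.1) scale, for the 24 neighbours of the beta-defensin clusters that reached the floor, in map order; bars in red are called higher, in blue lower, in grey neither, and dashed lines mark 1 and -1. Neighbours on chromosome 14 (median 0.34) and chromosome 2 (median 0.30) lie mostly above 0, and those of the second group on chromosome 8 (median -0.88) lie below it.

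Other antimicrobial peptide and protein genes at the floor were more often called lower than higher in the knockout library, and without a floor the order turned. Of 40 with a row, 20 reached the floor, 1 was called higher, 9 lower and 10 neither, with a median log2 ratio of -0.58. The call shares over all genes were 18.2% higher and 12.2% lower. With no floor, 13 of the 40 were called higher and 10 lower, with a median of 0.02. The balance also depended on the scaling, with 4 higher and 5 lower of 24 after rescaling to TPM and a median of -0.10. *Rnase6*, an antimicrobial ribonuclease gene, had 13.9 FPKM in wild type oocytes and was at 0 in the knockout library. *Defb48* had the opposite arrangement, with 12.3 FPKM in the knockout library. The alpha-defensin gene *Gm15299* (*Defa27* in RefSeq) stood at 2.52 and 0.385 FPKM, 6.55-fold lower. *Gm7861* (*Defa43*) was listed at 0 in the wild type library and stood at 1.07 FPKM in the knockout library. Of the 14 alpha-defensin genes with a row, 8 reached the floor, with 1 called higher and 4 lower. Alpha-defensin genes are near-identical copies, and how shared reads were assigned to them was not given in the sources used here. Of the 11 genes of the *Wfdc* family of protease inhibitors, 6 reached the floor, with 0 called higher and 3 lower. All 3 lost that call under another scaling, with log2 ratios up to -0.86 for *Wfdc1*, -0.83 for *Wfdc15a* and -0.92 for *Wfdc3*.

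Genes for receptors that beta-defensins bind and for the signalling that induces them were called in both directions. Of 36 listed genes 30 had a row and 14 reached the floor. Of these 14, 4 were called higher, 2 lower and 8 neither, beside 18.2% higher and 12.2% lower over all genes at the floor. The median log2 ratio was 0.01, beside 0.06 over all genes at the floor. The balance turned with the scaling, with 2 higher and 3 lower and a median of -0.13 under median-of-ratios scaling, and 6 higher and 1 lower of 18 and a median of 0.49 after rescaling to TPM. *Nfkb1*, the p105 and p50 subunit gene of NF-kappaB, had 1.31 FPKM in wild type oocytes and 0.174 FPKM in knockout oocytes, 7.50-fold lower. *Ripk2*, a kinase gene downstream of NOD receptors, stood at 21.97 and 10.01 FPKM, 2.19-fold lower, a call it lost under another scaling (log2 ratio up to -0.89). *Il1r1*, the interleukin receptor gene, stood at 9.37 and 24.2 FPKM, 2.58-fold higher. *Tnfrsf1a*, the receptor gene for TNF, stood at 0.294 and 1.30 FPKM, 4.42-fold higher. *Ccr6*, the chemokine receptor that beta-defensins bind, had 0.117 FPKM in the wild type library and was at 0 in the knockout library. The melanocortin receptor *Mc1r* was listed at 0 in the wild type library and had 0.0510 FPKM in the knockout library.

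Genes known from the epididymis, where *Defb41* is mainly made, were low in both libraries in most cases. Of 41 listed genes 25 had a row and 8 reached the floor. Of these 8, 4 were called higher, 1 lower and 3 neither, beside 18.2% higher and 12.2% lower over all genes at the floor. The median log2 ratio was 0.85, beside 0.06 over all genes at the floor. Under median-of-ratios scaling 1 was called higher and 1 lower of 6, with a median of 0.22. *Cst8* and *Cst12*, of the reproductive cystatins, stood at 0.252 and 1.02 FPKM and at 2.80 and 6.78 FPKM. *Spink13*, a protease inhibitor gene, stood at 0.625 and 1.43 FPKM, and *Pate4*, the lower one, at 1.68 and 0.451 FPKM. *Clu*, the other one called higher, stood at 5.56 and 11.5 FPKM. Under median-of-ratios scaling *Spink13* and *Clu* lost their calls, with log2 ratios of 0.95 and 0.89. *Cst8* lost its call there too, because it fell under the floor. *Crisp1* and *Adam7*, abundant in the epididymis, were under 0.2 FPKM in both libraries. No gene of this list reached the 45.7 FPKM of *Defb41* in either library.

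**Figure D5:**
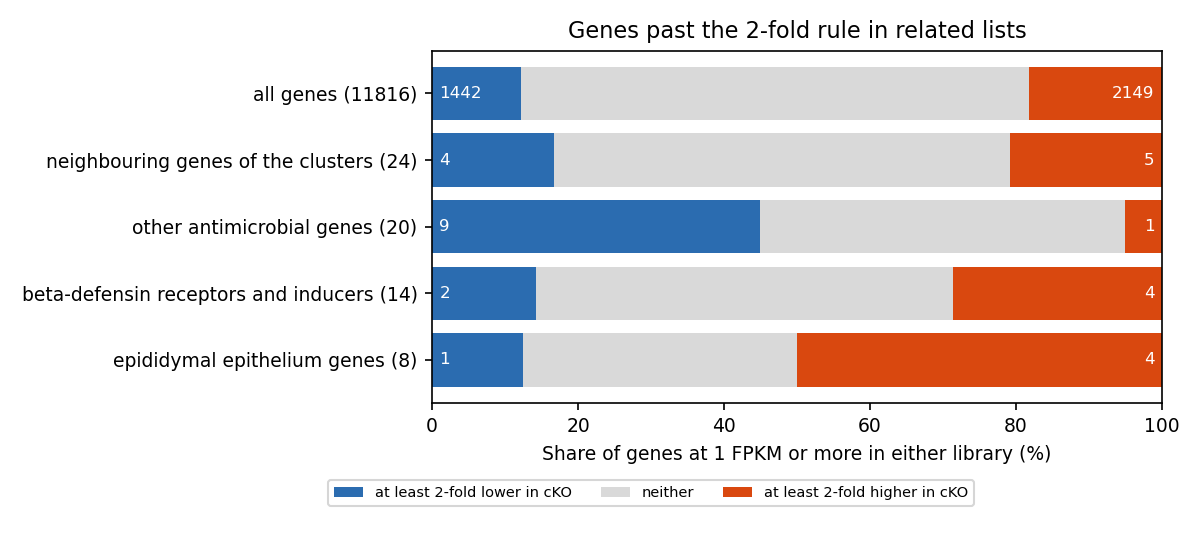
Share of genes called at least 2-fold lower (blue), neither (grey) or at least 2-fold higher (red) in the knockout library among genes that reached the floor of 1 FPKM, for all genes and 4 lists related to the beta-defensins, with numbers of genes called in the bars and list sizes in parentheses. The antimicrobial list has 9 of 20 lower and 1 higher (5 and 4 of 24 after rescaling to TPM), beside 1442 lower and 2149 higher of 11816 for all genes.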

How the data were processed

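The authors deposited 3 tables (all genes, and genes they list as higher or lower) with 1 FPKM value per gene and library, a linear fold change of KO over NC, a p-value and an FDR, per the file headers. Nothing states their test, and the p-value and FDR columns were not used. The mapping used Bowtie 0.12.2 and mm10, per the submitters' processing notes; counting, annotation and strand were not given in the sources used here. Values of 0 were deposited as 1e-05 and read as 0. A line of the table of all genes held no values and is not reported here.

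The log2 ratio of FPKM + 0.1 was computed in Python 3.11.15 with pandas 2.3.3 and numpy 2.4.6, and called at 1 FPKM or more in either library and a log2 ratio of at least 1 or at most -1. Each group has 1 library, so no test was run and no error is given. Only the calling rule was tested on simulated data, with large changes placed in genes well above the floor. Changes in low or zero values and the other steps were not tested in this way. Total depth per sample is unknown. The members and gene lists were chosen with earlier results of these data known. Every member above 0 was named, with the neighbours next to those at 1 FPKM or more and called neighbours in their clusters, the 4 genes of each list with the largest log2 ratio at that floor, and *Kat8*. The genes *Ccr6*, *Mc1r*, *Crisp1*, *Crisp4*, *Adam7*, *Clu*, *Spag11a*, *Spag11b*, *Wfdc1*, *Wfdc3*, *Wfdc15a* and the cell type markers named were added after their values were seen. So were *Defa-ps1*, *Nek3* and *Alg11*. List genes were matched by RefSeq gene ID; of the 40 antimicrobial genes with a row, 11 carry an older name in the table. The call counts for the 29 under their own names were 0 higher and 6 lower of 12 at the floor. Coding sequences were aligned with Biopython 1.88.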

Additional observations from a re-analysis of the deposited data

How the results depend on the processing

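Presence was also counted at 0.1 FPKM, which changed neither count, and at 1 FPKM, which left 4 members for wild type and 6 for the knockout. The 2 members called higher stayed at 2 under pseudocounts of 0.01 and 1 FPKM, 3 other scalings, no floor and a floor of 5 FPKM. The family was chosen on these 2, *Defb41* and *Defb48*. At 0 in wild type and 45.7 and 12.3 FPKM in the knockout library they pass any of these settings, so the unchanged count adds no support. The 1 called lower stayed at 1 under the pseudocounts and scalings, was 7 with no floor, and was 0 with a floor of 5 FPKM, which *Defb19* does not reach. The log2 ratio of *Defb50* ran from -0.96 to -0.57 and that of *Defb19* from -1.70 to -1.35 over the 4 scalings. The median log2 ratio of all genes, 0.12 in FPKM, was 0.34 after rescaling to TPM, 0.01 by median-of-ratios scaling and 0.28 with library sizes without the 50 most abundant genes. Of all called genes, 59.8% were higher in FPKM, beside 75.3%, 49.1% and 73.4% under these scalings. Of the 8 members above 0 in both libraries, 7 were lower by median-of-ratios scaling and 5 without the 50 most abundant genes. Counts for the related lists moved by over 1.5 times in 25 repeats and by 1.5 times or less in 31. No paired analysis was possible because each group has 1 library, and for the same reason no replicate could be left out. Members under 1 FPKM rest on few fragments.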
